A study of Mus musculus with 12 samples.

Results

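The cell cycle was followed here through 54 genes of DNA replication and mitosis and their regulators, chosen by name from the 49315 genes of a raw count table. They comprise 7 cyclins and cyclin-dependent kinases (CDKs) of the G1 phase and the G1/S transition, 3 CDK inhibitors, 5 transcription factors, 15 replication genes and 24 mitosis genes. RNA was sequenced from primary chondrocytes, the cells of cartilage, taken from the epiphyses of mice aged 5 days and labelled female. The groups were Phlpp1 KO (labelled Phlpp1-/-), Phlpp2 KO (Phlpp2-/-), Phlpp1/2 KO (Phlpp1/2-/-) and WT, with 3 libraries each. PHLPP1 and PHLPP2 are protein phosphatases that act on AKT among other kinases, and the comparisons ask what the loss of either or both does to these transcripts. In every group the cells had been freed with collagenase II, frozen, thawed and cultured for a night in DMEM with fetal bovine serum. The labels name no allele design, Cre or promoter, and leave unsaid whether animals were pooled, so p values measure the spread between these samples. The strain label is C57BL6 for most samples, C57BL7 for Phlpp2 KO 3 and C57BL8, C57BL9 and C57BL10 for Phlpp1/2 KO 1, 2 and 3.

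A dividing cell passes from G1 into S phase when cyclin D with CDK4 or CDK6, and then cyclin E with CDK2, release E2F factors from RB proteins, and E2F switches on the genes of DNA replication. Genes of G2 and mitosis are switched on later, by complexes of MuvB with MYBL2 (B-MYB) and FOXM1 that act through a promoter element called the cell cycle genes homology region (CHR). In the growth plate, proliferating chondrocytes divide in columns, and the CDK inhibitor p57, encoded by Cdkn1c, is known for its part in their exit from the cycle. In bulk samples, more dividing cells and more of a transcript in each dividing cell cannot be told apart.

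Library totals ran from 21706337 to 33115345 counts. Values are CPM, counts scaled by library size, and values of 3 libraries are given in the order of their replicate numbers. Phlpp1 lay at 8.82 to 9.53 CPM in the Phlpp1 KO, 37.9 to 44.7 in the Phlpp2 KO and 7.71 to 8.85 in the Phlpp1/2 KO, against 34.9 to 43.7 in WT. Phlpp2 lay at 22.9 to 25.1, 16.8 to 19.5 and 10.2 to 11.4 CPM in the same knockouts, against 22.3 to 28.01 in WT. The label "female" went against the counts of Phlpp1/2 KO 1, where Y-linked genes summed to 108 CPM and Xist stood at 3.75 CPM. In Phlpp1 KO 1 Xist stood at 13.97 CPM, with no Y-linked count. Results are also given without both of these libraries. Chondrocyte markers summed to 45073 to 59747 CPM in the Phlpp1 KO, 41305 to 51509 CPM in the Phlpp2 KO and 32562 to 50087 CPM in the Phlpp1/2 KO, against 39262 to 58368 CPM in WT, with all 16 genes tested. Above WT in log2 fold change were 11, 3 and 2 of the 16 in the Phlpp1 KO, Phlpp2 KO and Phlpp1/2 KO (medians 0.13, −0.13 and −0.16). In the Phlpp1/2 KO 3 of them lay below WT in every library, against 9.44% of all tested genes, and none had an adjusted p under 0.05 by edgeR.

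The 24 mitosis genes had higher fitted levels in each knockout than in WT, while most replication genes lay close to WT. No single member was called by edgeR, the main test, in any of the 3 comparisons with WT. Over the mitosis genes the median log2 fold change was 0.28 in the Phlpp1 KO, 0.45 in the Phlpp2 KO and 0.51 in the Phlpp1/2 KO, and all 24 lay above 0 in each. Over the replication genes it was 0.06 in the Phlpp1 KO, 0.03 in the Phlpp2 KO and 0.11 in the Phlpp1/2 KO, with 14, 10 and 14 of 15 above 0. Over all 16540 tested genes the medians were 0.0056, −0.0013 and 0.0086, and 51.2%, 49.7% and 52.4% lay above 0. The 3 comparisons share their WT libraries. These medians are descriptions with no test of their own.

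With edgeR's quasi-likelihood test, and p values adjusted over all tested genes by Benjamini and Hochberg's method, 0 of 54 members were called at an adjusted p under 0.05 in the Phlpp1 KO against WT, where 0.472% of all tested genes were called. The counts were also 0 in the Phlpp2 KO (background 0.139%) and in the Phlpp1/2 KO (background 0.224%). At an unadjusted p under 0.05, 12 members were higher and 0 lower in the Phlpp1 KO, against 12.4% and 8.11% of all tested genes. In the Phlpp2 KO 17 were higher and 1 lower (background 9.35% and 4.07%). In the Phlpp1/2 KO 27 were higher and 0 lower (background 5.66% and 5.51%). limma-voom called 0 members in each, where it called 0.417%, 0.0967% and 0.236% of all tested genes. DESeq2 called 8, 7 and 5 members in the Phlpp1 KO, Phlpp2 KO and Phlpp1/2 KO, all higher, where it called 5.98%, 1.92% and 1.02% of all tested genes.

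The mitosis level differed between libraries of the same genotype. The 24 genes summed to 1863, 1365 and 1660.4 CPM in the Phlpp1 KO, 1358, 1912 and 2309.7 CPM in the Phlpp2 KO and 1932, 1681 and 1874 CPM in the Phlpp1/2 KO, against 1299, 1389 and 1109.6 CPM in WT. Phlpp1 KO 2 and Phlpp2 KO 1 thus lay inside the WT range, and the 3 Phlpp1/2 KO libraries above it. Of the 24 genes, 24, 9 and 11 exceeded all 3 WT libraries in Phlpp1 KO 1, 2 and 3, 8, 24 and 24 in Phlpp2 KO 1, 2 and 3 and 24, 23 and 22 in Phlpp1/2 KO 1, 2 and 3. The replication genes summed to 2459, 2562 and 2469.5 CPM in the Phlpp1 KO, 2219, 2521 and 2566 in the Phlpp2 KO and 2606, 2477 and 2631 in the Phlpp1/2 KO, against 2526, 2337 and 2293 in WT, so each knockout overlapped with WT. Over all 54 members, 13, 10 and 31 lay above WT in every library of the Phlpp1 KO, Phlpp2 KO and Phlpp1/2 KO (background 16.6%, 11.2% and 9.52%), and 1 (Cdkn1a), 2 (E2f1 and Cdt1) and 0 lay below (background 11.3%, 7.29% and 9.44%).

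Single libraries moved the size of the mitosis difference in the Phlpp1 KO and Phlpp2 KO. The Phlpp1 KO median of 0.28 was 0.10 without Phlpp1 KO 1, 0.16 without WT 3 and 0.11 without both libraries with low Xist. The Phlpp2 KO median of 0.45 was 0.29 without Phlpp2 KO 3 and 0.65 without Phlpp2 KO 1. The Phlpp1/2 KO median of 0.51 lay between 0.41 and 0.60 whichever library was left out, and was 0.47 without both libraries with low Xist.

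Other measures were read beside the mitosis genes. Mitochondrial transcripts held 0.842 to 1.1001% of counts in the Phlpp1 KO, 0.911 to 1.14% in the Phlpp2 KO and 0.749 to 1.05% in the Phlpp1/2 KO, against 0.674 to 0.751% in WT. Both single knockouts lay above WT and the Phlpp1/2 KO overlapped with it. Skeletal muscle markers (12 of 13 tested) summed to 13.8 to 63.7 CPM in the Phlpp1 KO, 10.8 to 22.7 CPM in the Phlpp2 KO and 20.4 to 35.8 CPM in the Phlpp1/2 KO, against 27.6 to 135 CPM in WT, the highest being WT 2, which was also the highest WT library for the mitosis genes. Macrophage markers (11 of 13 tested) summed to 50.95 to 56.2 CPM in the Phlpp1 KO, 53.97 to 69.2 CPM in the Phlpp2 KO and 56.1 to 75.8 CPM in the Phlpp1/2 KO, against 57.8 to 64.4 CPM in WT. The muscle sum was below WT in the Phlpp2 KO and the macrophage sum below WT in the Phlpp1 KO, and the other knockouts overlapped with WT in both. Gene by gene, 7, 8 and 9 of the 11 macrophage markers had log2 fold changes above 0 in the Phlpp1 KO, Phlpp2 KO and Phlpp1/2 KO (medians 0.12, 0.33 and 0.62). In the Phlpp1/2 KO, 7 of them lay above WT in every library and 1 below (background 9.52% and 9.44%). At an unadjusted p under 0.05 by edgeR, 5 were higher and 0 lower (background 5.66% and 5.51%), and none was called. C1qa, C1qb and Ptprc, among the defining ones, were under 1 CPM in every library. Of the 12 muscle markers 10, 12 and 11 had log2 fold changes below 0 in the Phlpp1 KO, Phlpp2 KO and Phlpp1/2 KO. Endothelial markers (9 of 9 tested) summed to 6.28 to 18.4 CPM in the Phlpp1 KO, 9.38 to 17.1 CPM in the Phlpp2 KO and 10.4 to 15.1 CPM in the Phlpp1/2 KO, against 8.28 to 11.9 CPM in WT. Fibroblast and perichondrium markers (10 of 10 tested) summed to 1409.8 to 1683 CPM in the Phlpp1 KO, 1639 to 2229 CPM in the Phlpp2 KO and 1371 to 1579 CPM in the Phlpp1/2 KO, against 1461 to 1985 CPM in WT. Hypertrophic chondrocyte markers (11 of 11 tested) summed to 4825 to 5391 CPM in the Phlpp1 KO, 4933 to 7211 CPM in the Phlpp2 KO and 4631 to 5557 CPM in the Phlpp1/2 KO, against 4414 to 5143 CPM in WT. Each knockout overlapped with WT in these 3 sums. Of the 9 endothelial markers 6, 9 and 6 had log2 fold changes above 0 in the Phlpp1 KO, Phlpp2 KO and Phlpp1/2 KO (medians 0.14, 0.53 and 0.45). In both the Phlpp2 KO and the Phlpp1/2 KO, 2 of them lay above WT in every library (background 11.2% and 9.52%), and none was called. Emcn and Cldn5 were under 1 CPM in every library. Of the 10 fibroblast and perichondrium markers 3, 8 and 3 lay above 0 (medians −0.02, 0.23 and −0.05). The hypertrophic sum did not follow most of its genes in the Phlpp1 KO, where 8 of 11 had log2 fold changes below 0 (median −0.57), 5 lay below WT in every library (background 11.3%) and none was called. The same median was 0.15 in the Phlpp2 KO and −0.33 in the Phlpp1/2 KO. Keratinocyte markers (3 of 7 tested) summed to 6.15 to 7.37 CPM in the Phlpp1 KO, 7.07 to 7.95 CPM in the Phlpp2 KO and 7.07 to 7.34 CPM in the Phlpp1/2 KO, against 6.72 to 9.23 CPM in WT. Erythroid markers, none of which passed the count filter, summed to 0.496 to 0.844 CPM in the Phlpp1 KO, 0.544 to 0.826 CPM in the Phlpp2 KO and 0.582 to 0.858 CPM in the Phlpp1/2 KO, against 0.361 to 0.429 CPM in WT, so that every knockout library lay above WT at under 1 CPM. Among the tested markers, the muscle gene Tnnc2 and the keratinocyte gene Krt5 were also under 1 CPM in every library. Single markers that the count filter removed were not examined. The part of these measures in the mitosis result was not tested.

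Members differed widely in level. Per kilobase of exon in WT, the CDK inhibitor gene Cdkn1a was highest at 201 CPM per kb, followed by the DNA clamp Pcna at 125, the ribonucleotide reductase subunit Rrm2 at 115, cyclin D1 (Ccnd1) at 107 and Cdk4 at 97.4. The lowest were the transcription factor E2f2 at 0.742 and the kinetochore genes Cenpf at 1.304 and Cenpe at 2.48 CPM per kb. The median level was 36.1 CPM per kb over the 15 replication genes and 11.6 over the 24 mitosis genes. The mitosis genes varied more between libraries: the highest of the 12 libraries was 1.69 to 3.76 times the lowest (median 2.04), and 1.16 to 2.08 times for the replication genes (median 1.29).

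**Figure D1:**
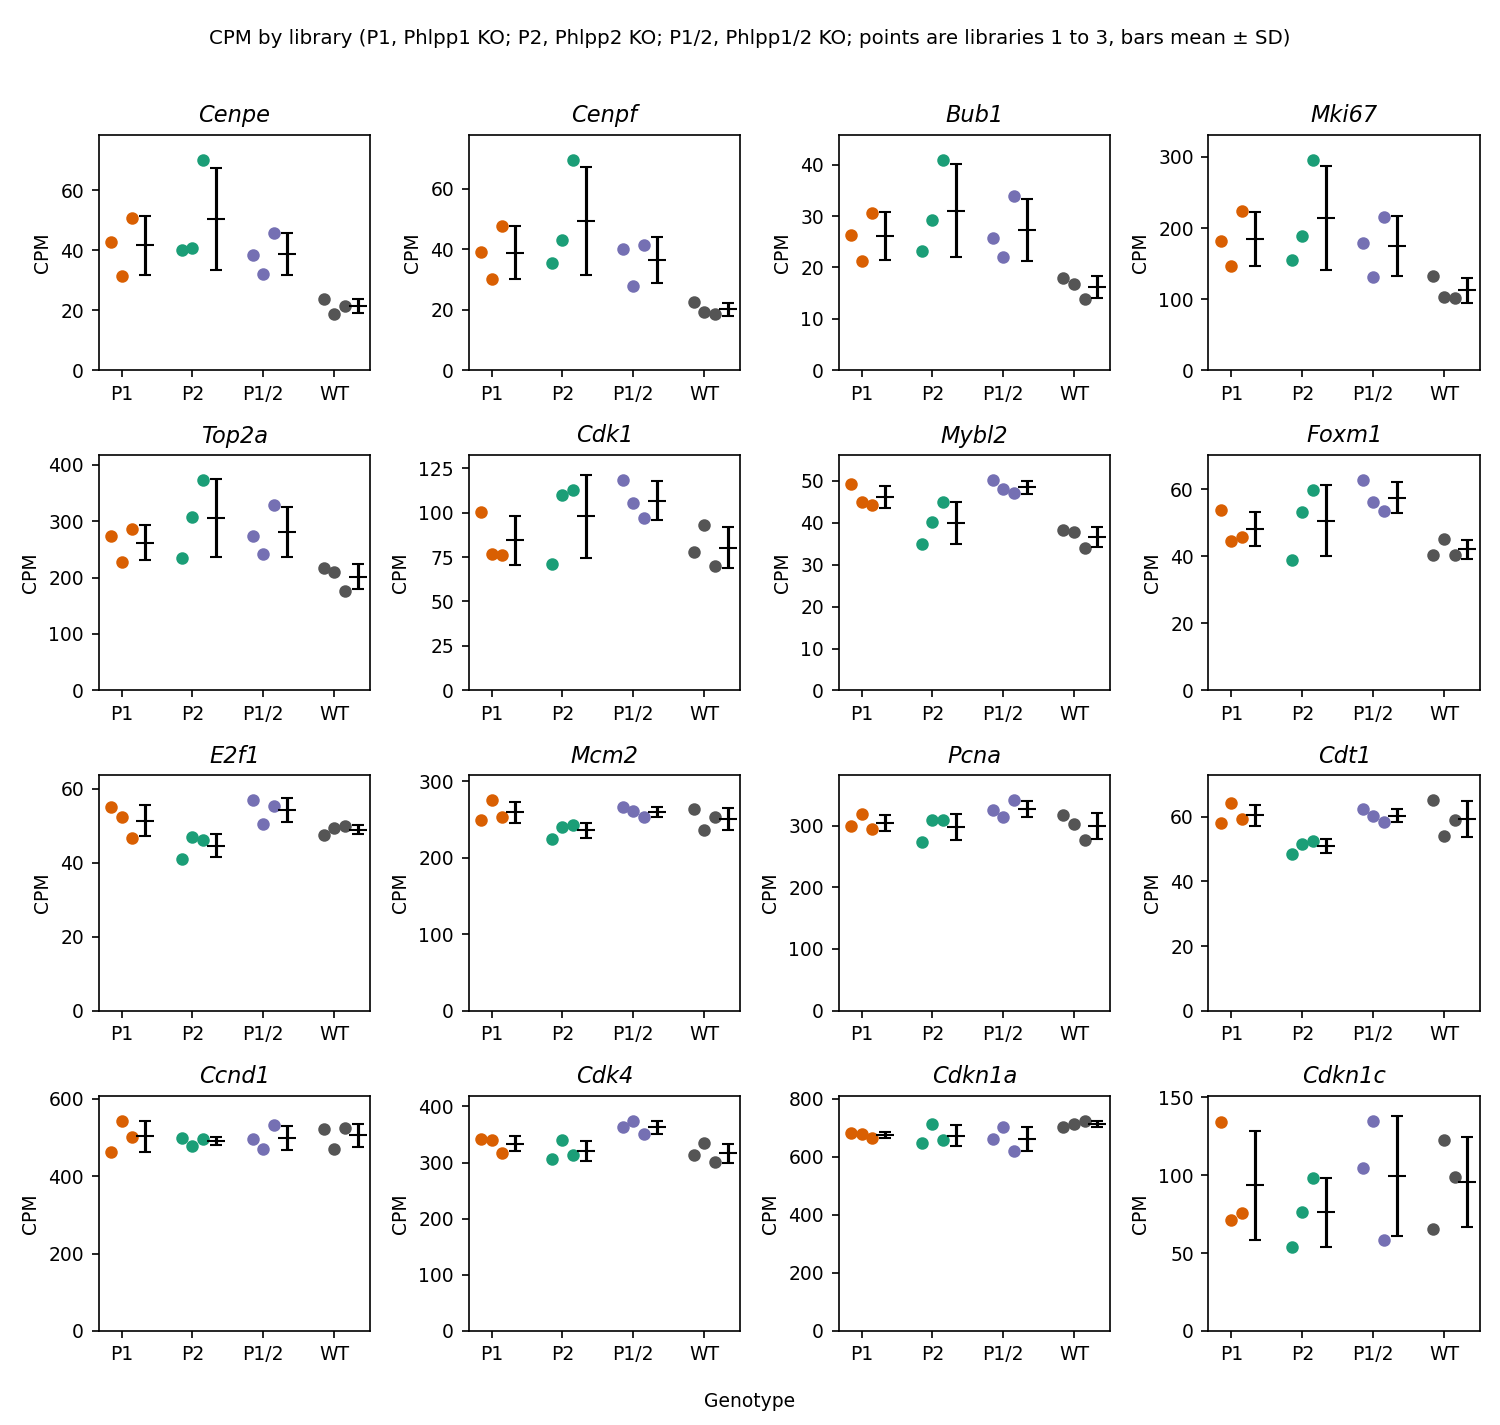
CPM of 16 members by genotype, 1 point per library (1 to 3 from left to right), with the mean ± SD of the 3 libraries beside them. Cenpe, Cenpf and Bub1 have every knockout library above every WT library, while Mcm2, Pcna and Ccnd1 have each knockout overlapping with WT.

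The cyclins and kinases of G1 stayed near WT apart from Ccne2. The 7 genes had a median log2 fold change of 0.07 in the Phlpp1 KO, 0.02 in the Phlpp2 KO and 0.09 in the Phlpp1/2 KO, and none was called. Ccnd1, the cyclin D1 gene that carries mitogen signals into the cycle, had 462, 544 and 503 CPM in the Phlpp1 KO, 499, 478 and 496 CPM in the Phlpp2 KO and 495, 472 and 533 CPM in the Phlpp1/2 KO, against 521, 471 and 525 CPM in WT. Each knockout overlapped with WT, and the 95% intervals of its log2 fold change were −0.17 to 0.16 in the Phlpp1 KO, −0.21 to 0.12 in the Phlpp2 KO and −0.18 to 0.15 in the Phlpp1/2 KO. Reads over part of Ccnd1 are shared with the overlapping gene LTO1, as far as their transcripts show. Ccnd2, the second D-type cyclin, had 416, 360.2 and 359.7 CPM in the Phlpp1 KO, 381, 360.2 and 352 CPM in the Phlpp2 KO and 367, 387 and 341 CPM in the Phlpp1/2 KO, against 363, 371 and 402 CPM in WT, again with each knockout overlapping with WT.

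Cdk4, the kinase partner of the D cyclins, had 341, 341 and 318 CPM in the Phlpp1 KO, 306, 339.8 and 313 CPM in the Phlpp2 KO and 363, 374 and 350.2 CPM in the Phlpp1/2 KO, against 313, 335 and 301 CPM in WT. All 3 Phlpp1/2 KO libraries lay above WT (log2 fold change 0.20, SE 0.06, adjusted p = 0.284), and the single knockouts overlapped with WT. Its transcripts share 641 bases with those of Tspan31, so reads there may belong to either gene. Ccne2, a cyclin E gene whose product activates CDK2 at the start of S phase, had 45.3, 47.02 and 55.5 CPM in the Phlpp1 KO, 49.3, 44.5 and 56.1 CPM in the Phlpp2 KO and 35.3, 31.1 and 55.3 CPM in the Phlpp1/2 KO, against 36.3, 33.7 and 29.9 CPM in WT. Both single knockouts lay above WT in every library, and the Phlpp1/2 KO overlapped with it. The fitted log2 fold changes were 0.57 (SE 0.19, adjusted p = 0.132) in the Phlpp1 KO and 0.59 (SE 0.19, adjusted p = 0.227) in the Phlpp2 KO. Ccne2 has the lowest GC content of the members, and with a GC offset, added after seeing the data, the values were 0.19 and 0.16. The other 3, Ccne1, Cdk2 and Cdk6, had log2 fold changes between −0.0066 and 0.17.

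Of the 3 CDK inhibitors none was called in any comparison. Cdkn1a, which encodes p21 and is induced by p53, had 681, 679.9 and 664 CPM in the Phlpp1 KO, 646, 715 and 658 CPM in the Phlpp2 KO and 661, 704 and 621 CPM in the Phlpp1/2 KO, against 703, 712 and 725 CPM in WT. All 3 Phlpp1 KO libraries lay below WT, while 1 Phlpp2 KO library and 1 Phlpp1/2 KO library lay inside the WT range. The log2 fold changes were −0.08 (SE 0.06), −0.08 (SE 0.06) and −0.11 (SE 0.06) with adjusted p values of 0.480, 0.594 and 0.532. Cdkn1b, which encodes p27, had 44.2, 32.6 and 36.9 CPM in the Phlpp1 KO, 36.3, 44.9 and 46.8 CPM in the Phlpp2 KO and 41.5, 35.1 and 36.1 CPM in the Phlpp1/2 KO, against 38.4, 39.4 and 35.8 CPM in WT, with each knockout overlapping with WT. Cdkn1c had 134, 70.9 and 75.99 CPM in the Phlpp1 KO, 53.6, 76.4 and 98.3 CPM in the Phlpp2 KO and 104, 135 and 58.3 CPM in the Phlpp1/2 KO, against 65.4, 123 and 98.7 CPM in WT. It was the most variable of the 3, by 2.52 times between the highest and lowest library, within genotypes as much as between them.

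The transcription factor gene Mybl2 was the only member called in any of the 9 comparisons by the main edgeR fit, with genotype as its only term. Mybl2, a MYB-family factor that acts with MuvB on mitotic genes (chr2:163054687-163084688, plus strand, mm10), had 49.3, 44.9 and 44.3 CPM in the Phlpp1 KO, 34.99, 40.2 and 44.98 CPM in the Phlpp2 KO and 50.2, 48.2 and 47.1 CPM in the Phlpp1/2 KO, against 38.3, 37.8 and 33.98 CPM in WT. The Phlpp1 KO and Phlpp1/2 KO libraries all lay above WT, and the Phlpp2 KO libraries overlapped with it. With the Phlpp1 KO and Phlpp1/2 KO libraries set against the Phlpp2 KO and WT libraries, 6 against 6, Mybl2 rose by 0.30 on the log2 scale with an SE of 0.06 and an adjusted p of 0.0471 by edgeR, where 0.544% of all tested genes were called. The 2 sets of 6 overlapped through Phlpp2 KO 3. Against WT alone the values were 0.33 (SE 0.09) in the Phlpp1 KO, 0.13 (SE 0.09) in the Phlpp2 KO and 0.40 (SE 0.09) in the Phlpp1/2 KO, with adjusted p values of 0.0896, 0.578 and 0.113. The call lay near its threshold: it held in 10 of 22 alternatives, among them 2 of the 12 with 1 library left out, with adjusted p values between 0.000636 and 0.215. Without both libraries with low Xist it did not hold (adjusted p = 0.215). The promoter window of Mybl2 (chr2:163054385-163054684, plus strand) held none of the letters searched for as a CHR, an E2F core or a CCAAT box. It holds TTGGCGG, which differs from the searched E2F form TTGGCGC in its last base and was not itself searched. The search therefore cannot say whether this window holds an E2F site. The window is shown because Mybl2 is the called member:
Mybl2: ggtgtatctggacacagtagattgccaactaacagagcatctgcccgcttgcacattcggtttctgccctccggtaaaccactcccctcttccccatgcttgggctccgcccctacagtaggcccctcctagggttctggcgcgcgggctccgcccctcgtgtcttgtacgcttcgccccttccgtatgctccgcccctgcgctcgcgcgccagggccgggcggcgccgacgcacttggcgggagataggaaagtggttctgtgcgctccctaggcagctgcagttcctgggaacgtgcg

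Foxm1, the forkhead factor of the G2 and M phases, had 53.9, 44.7 and 45.9 CPM in the Phlpp1 KO, 38.9, 53.3 and 59.8 CPM in the Phlpp2 KO and 62.7, 56.2 and 53.6 CPM in the Phlpp1/2 KO, against 40.5, 45.3 and 40.4 CPM in WT. All Phlpp1/2 KO libraries exceeded WT (log2 fold change 0.45, SE 0.13, adjusted p = 0.269). E2f1, the activator of S phase genes, had 55.1, 52.3 and 46.8 CPM in the Phlpp1 KO, 40.98, 46.9 and 46.1 CPM in the Phlpp2 KO and 56.9, 50.5 and 55.4 CPM in the Phlpp1/2 KO, against 47.6, 49.4 and 49.9 CPM in WT. The Phlpp2 KO libraries lay below WT and the Phlpp1/2 KO libraries above it, at log2 fold changes of −0.13 (SE 0.08, adjusted p = 0.478) and 0.15 (SE 0.07, adjusted p = 0.491). E2f8, an atypical E2F that represses, and E2f2 had log2 fold changes between −0.38 and 0.26, E2f2 at a mean of 3.28 CPM.

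The replication genes were among the most even members. Mcm2, a subunit of the MCM helicase that opens DNA at origins, had 250.005, 275 and 253 CPM in the Phlpp1 KO, 225, 240.2 and 243 CPM in the Phlpp2 KO and 267, 262 and 253 CPM in the Phlpp1/2 KO, against 264, 236 and 254 CPM in WT. The groups overlapped with WT, and the 95% intervals of the log2 fold change were −0.09 to 0.19 in the Phlpp1 KO, −0.23 to 0.05 in the Phlpp2 KO and −0.09 to 0.19 in the Phlpp1/2 KO. The other 5 helicase subunits, Mcm3 to Mcm7, had log2 fold changes between −0.11 and 0.16. Pcna, the sliding clamp of DNA polymerases, had 299, 319 and 295 CPM in the Phlpp1 KO, 274, 309.9 and 309.7 CPM in the Phlpp2 KO and 326, 315 and 341 CPM in the Phlpp1/2 KO, against 318, 303 and 277 CPM in WT, with overlap of every knockout with WT and log2 fold changes of 0.02, −0.007 and 0.13.

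A few replication genes lay outside that range. Cdt1, which loads the helicase at origins, had 58.1, 64.2 and 59.2 CPM in the Phlpp1 KO, 48.5, 51.7 and 52.5 CPM in the Phlpp2 KO and 62.4, 60.1 and 58.3 CPM in the Phlpp1/2 KO, against 65.04, 53.998 and 58.9 CPM in WT. All Phlpp2 KO libraries lay below WT (log2 fold change −0.22, SE 0.07, adjusted p = 0.225) and below the Phlpp1 KO and Phlpp1/2 KO libraries. Pola1, the catalytic subunit of the polymerase that starts each strand, had 50.8, 56.5 and 69.6 CPM in the Phlpp1 KO, 58.5, 51.99 and 69.8 CPM in the Phlpp2 KO and 42.7, 37.2 and 64.8 CPM in the Phlpp1/2 KO, against 45.9, 33.5 and 37.9 CPM in WT. The single knockouts exceeded WT in every library, with log2 fold changes of 0.60 (SE 0.21, adjusted p = 0.148) and 0.62 (SE 0.21, adjusted p = 0.238), and 0.39 and 0.39 with the GC offset. In the Phlpp1/2 KO, 5 of 15 replication genes had no overlap with WT, all higher (Mcm5, Gins2, Rrm1, Tyms and Rfc4), against 9.52% of all tested genes, with log2 fold changes of 0.16 to 0.28. Rrm1 and Tyms serve nucleotide supply, Gins2 belongs to the replicative helicase and Rfc4 to the clamp loader. Of these 5, the sharing of sequence is longest for Gins2, whose transcript lies over 70.7% of its length within that of Gse1. Rfc4 shares 14.5% of its transcript with Eif4a2, which held 123228 counts over all libraries where Rfc4 held 8798.

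The promoter windows of replication genes are shown for the E2F sites they hold. Each runs from 250 bases before to 50 bases after the RefSeq start site (GRCm38.p6, the gene's own strand), and capitals mark an E2F core or a CCAAT box on either strand. Cdt1 (chr8:122567765-122568064, plus strand) holds 2 E2F cores, Rrm1 (chr7:102441445-102441744, plus strand) 1 E2F core between 2 CCAAT boxes, and Mcm5 (chr8:75109259-75109558, plus strand), chosen after its matches were seen, 3 E2F cores, of which 2 overlap. The window of Tyms (chr5:30073576-30073875, minus strand) holds none of the letters searched.
Cdt1: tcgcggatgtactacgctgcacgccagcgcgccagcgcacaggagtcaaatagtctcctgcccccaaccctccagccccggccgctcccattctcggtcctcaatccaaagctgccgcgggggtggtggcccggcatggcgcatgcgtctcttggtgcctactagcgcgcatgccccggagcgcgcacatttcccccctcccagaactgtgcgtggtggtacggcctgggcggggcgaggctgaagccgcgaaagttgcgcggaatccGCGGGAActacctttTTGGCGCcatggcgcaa
Rrm1: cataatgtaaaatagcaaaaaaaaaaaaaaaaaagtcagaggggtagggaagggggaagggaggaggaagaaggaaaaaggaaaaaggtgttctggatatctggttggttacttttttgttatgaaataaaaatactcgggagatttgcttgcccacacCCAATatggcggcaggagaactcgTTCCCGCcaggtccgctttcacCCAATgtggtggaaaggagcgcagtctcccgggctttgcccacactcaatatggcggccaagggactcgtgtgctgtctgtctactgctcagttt
Mcm5: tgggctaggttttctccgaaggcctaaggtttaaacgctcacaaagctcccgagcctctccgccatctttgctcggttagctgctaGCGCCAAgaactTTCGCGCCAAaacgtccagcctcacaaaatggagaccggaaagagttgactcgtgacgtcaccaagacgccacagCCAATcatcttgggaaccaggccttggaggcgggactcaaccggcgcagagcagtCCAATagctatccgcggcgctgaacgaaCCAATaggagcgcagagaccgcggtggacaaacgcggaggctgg
Tyms: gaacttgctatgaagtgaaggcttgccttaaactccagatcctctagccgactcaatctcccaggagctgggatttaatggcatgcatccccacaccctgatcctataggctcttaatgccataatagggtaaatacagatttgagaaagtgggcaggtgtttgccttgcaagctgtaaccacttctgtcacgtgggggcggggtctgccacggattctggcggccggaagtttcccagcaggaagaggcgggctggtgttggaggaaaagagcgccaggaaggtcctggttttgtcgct

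**Figure D2:**
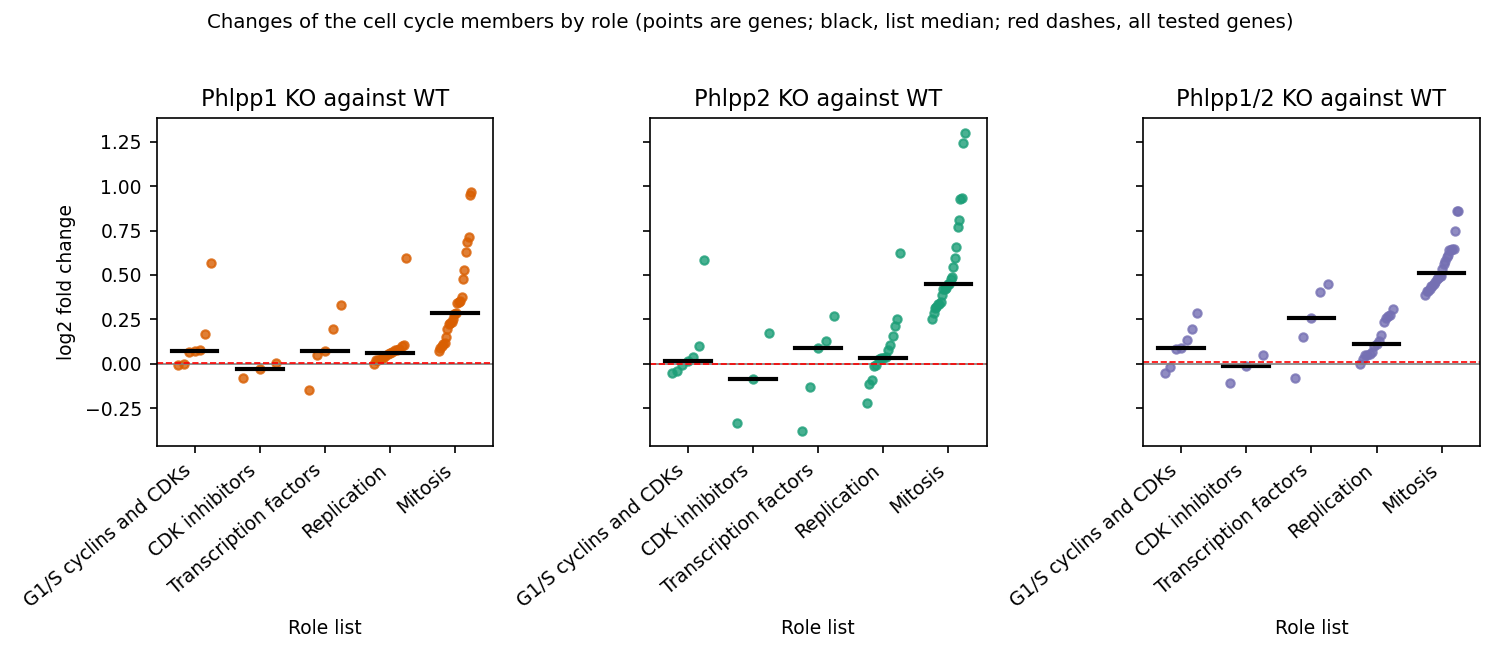
Fitted log2 fold change of each member (points) in the 3 knockouts against WT by role, with the list median (black) and the median of all tested genes (red dashes). The 24 mitosis points lie above 0 in each panel, with medians of 0.28, 0.45 and 0.51, and the replication medians are 0.06, 0.03 and 0.11.

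Among the mitosis genes Cenpe and Cenpf had the largest log2 fold changes in each knockout. Cenpe encodes a kinesin that moves chromosomes to the spindle equator (chr3:135212537-135273611, plus strand, mm10), and had 42.9, 31.3 and 50.9 CPM in the Phlpp1 KO, 40.3, 40.8 and 70.1 CPM in the Phlpp2 KO and 38.3, 32.1 and 45.9 CPM in the Phlpp1/2 KO, against 23.6, 18.8 and 21.5 CPM in WT. Every knockout library lay above every WT library. The mean was 41.7 ± 9.82 CPM in the Phlpp1 KO, 50.4 ± 17.1 in the Phlpp2 KO and 38.7 ± 6.91 in the Phlpp1/2 KO, against 21.3 ± 2.401 in WT (SD, n = 3 each). The fit gave log2 fold changes of 0.97 (SE 0.24) in the Phlpp1 KO, 1.24 (SE 0.24) in the Phlpp2 KO and 0.86 (SE 0.24) in the Phlpp1/2 KO, with adjusted p values of 0.0924, 0.132 and 0.264 by edgeR.

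Cenpf, a large protein of the outer kinetochore and a marker of G2 (chr1:189640606-189688086, minus strand, mm10), had 39.04, 30.1 and 47.7 CPM in the Phlpp1 KO, 35.5, 43.2 and 69.6 CPM in the Phlpp2 KO and 40.3, 27.8 and 41.5 CPM in the Phlpp1/2 KO, against 22.7, 19.1 and 18.5 CPM in WT. Again no knockout library overlapped with WT, and the highest library was Phlpp2 KO 3. The fit gave log2 fold changes of 0.95 (SE 0.26) in the Phlpp1 KO, 1.298 (SE 0.26) in the Phlpp2 KO and 0.86 (SE 0.26) in the Phlpp1/2 KO, with adjusted p values of 0.103, 0.132 and 0.285 by edgeR. Bub1, a kinase of the spindle checkpoint, had 26.4, 21.3 and 30.6 CPM in the Phlpp1 KO, 23.1, 29.2 and 40.9 CPM in the Phlpp2 KO and 25.8, 22.1 and 33.9 CPM in the Phlpp1/2 KO, against 17.997, 16.8 and 13.9 CPM in WT, with no overlap and log2 fold changes of 0.69, 0.94 and 0.75 (adjusted p values 0.131, 0.170 and 0.281).

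Spindle motors and chromosome proteins also lay above WT. Kif11, the motor that pushes spindle poles apart, had 68.03, 54.2 and 68.3 CPM in the Phlpp1 KO, 55.6, 69.3 and 91.3 CPM in the Phlpp2 KO and 59.3, 50.6 and 82.7 CPM in the Phlpp1/2 KO, against 43.9, 42.7 and 36.9 CPM in WT. Kif23, a motor of the central spindle needed for cytokinesis, had 61.5, 43.1 and 53.2 CPM in the Phlpp1 KO, 45.4, 56.2 and 71.1 CPM in the Phlpp2 KO and 57.2, 53.7 and 60.1 CPM in the Phlpp1/2 KO, against 36.6, 42.1 and 30.8 CPM in WT. Nusap1, a protein that bundles spindle microtubules, had 37.3, 29.2 and 36.8 CPM in the Phlpp1 KO, 31.98, 41.5 and 52.97 CPM in the Phlpp2 KO and 37.6, 29.6 and 42.2 CPM in the Phlpp1/2 KO, against 25.98, 26.6 and 21.6 CPM in WT. None of these 3 genes had a knockout library within the WT range, and their adjusted p values were 0.131, 0.185 and 0.312 for Kif11, 0.128, 0.185 and 0.234 for Kif23 and 0.177, 0.170 and 0.322 for Nusap1. Top2a, the topoisomerase that untangles sister chromatids, had 274, 227 and 285 CPM in the Phlpp1 KO, 235, 308 and 373 CPM in the Phlpp2 KO and 273, 241 and 329 CPM in the Phlpp1/2 KO, against 218, 211 and 177 CPM in WT, also with no overlap and with log2 fold changes of 0.38, 0.60 and 0.48. Mki67, whose product Ki-67 is the usual marker of dividing cells, had 182, 147 and 223 CPM in the Phlpp1 KO, 156, 189 and 296 CPM in the Phlpp2 KO and 179, 131 and 215 CPM in the Phlpp1/2 KO, against 132, 103 and 101 CPM in WT. Its single knockouts lay above WT and 1 Phlpp1/2 KO library lay within the WT range, with log2 fold changes of 0.71 (SE 0.25), 0.93 (SE 0.26) and 0.64 (SE 0.25).

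The kinase that drives mitosis and its cyclin Ccnb1 overlapped with WT in the single knockouts. Cdk1 had 100.5, 76.9 and 76.1 CPM in the Phlpp1 KO, 71.1, 110.1 and 113 CPM in the Phlpp2 KO and 118, 105 and 96.7 CPM in the Phlpp1/2 KO, against 77.8, 92.98 and 70.1 CPM in WT, so that only the Phlpp1/2 KO was clear of WT. Its log2 fold changes were 0.07 (SE 0.18), 0.29 (SE 0.18) and 0.41 (SE 0.18). Ccnb1, its cyclin partner, had 76.4, 51.4 and 52.1 CPM in the Phlpp1 KO, 50.1, 77.1 and 79.99 CPM in the Phlpp2 KO and 82.04, 73.4 and 66.4 CPM in the Phlpp1/2 KO, against 46.7, 57.3 and 37.8 CPM in WT. Here too the Phlpp1/2 KO lay above WT in every library and the single knockouts overlapped with it. Ccnb1 shares 52% of its transcript with a pseudogene that held 137 counts. The other mitosis members were Ccna2, Ccnb2, Bub1b, Mad2l1, Cenpa, Kif20a, Aurka, Aurkb, Plk1, Tpx2, Cdc20, Ube2c, Birc5 and Ska1. They include the mitotic kinases Aurka, Aurkb and Plk1 and the genes Cdc20 and Ube2c, which direct the anaphase-promoting complex. Over these 14 the log2 fold changes were 0.09 to 0.35 in the Phlpp1 KO, 0.25 to 0.49 in the Phlpp2 KO and 0.39 to 0.61 in the Phlpp1/2 KO. In all, 9, 8 and 21 of the 24 mitosis genes had no overlap with WT in the Phlpp1 KO, Phlpp2 KO and Phlpp1/2 KO, all higher, against 16.6%, 11.2% and 9.52% of all tested genes.

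Base composition moved with these values. In all tested genes, those in the lowest quintile of transcript GC content (29.6% to 44.0%) had median log2 fold changes of 0.20 in the Phlpp1 KO, 0.21 in the Phlpp2 KO and 0.08 in the Phlpp1/2 KO. The 7 mitosis genes in that quintile, Top2a, Bub1, Mad2l1, Cenpe, Cenpf, Kif11 and Nusap1, had medians of 0.63, 0.81 and 0.64. The other 17 mitosis genes had 0.23, 0.42 and 0.49, and the 12 replication genes outside that quintile 0.05, 0.03 and 0.08. With an offset for GC content, chosen after seeing the data, the mitosis medians were 0.27, 0.42 and 0.51, and the lowest quintile of all tested genes lay at −0.0014, −0.02 and −0.0089. Under that offset Cenpe stood at 0.82, 1.07 and 0.80 (adjusted p values 0.130, 0.200 and 0.219) and Bub1 at 0.46, 0.69 and 0.65.

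**Figure D3:**
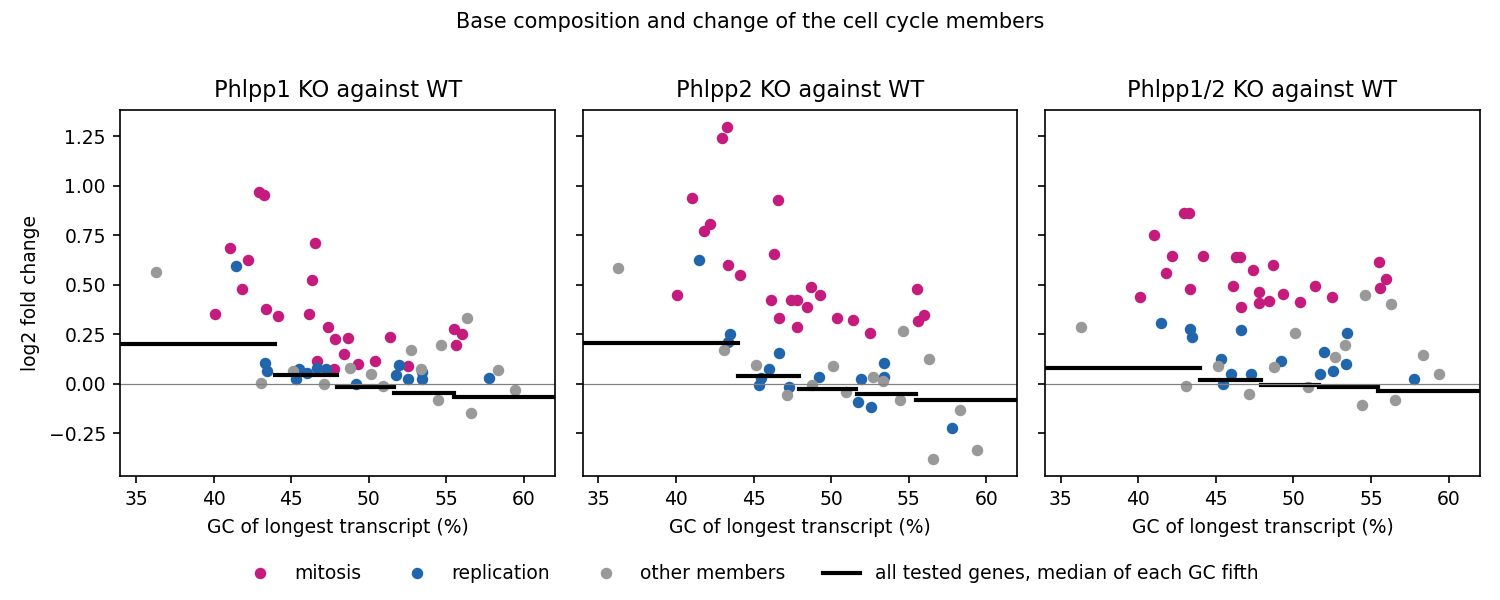
GC content of the longest transcript (x axis, percent) against the fitted log2 fold change of each member in the 3 knockouts against WT, with black bars for the median of all tested genes in each quintile of GC content. Mitosis genes (pink) lie above the bars at every GC content they span, and the highest of them lie in the lowest quintile, where the bars stand at 0.20, 0.21 and 0.08.

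The genotypes were also compared with each other. In the Phlpp1 KO against the Phlpp2 KO all 24 mitosis genes had log2 fold changes below 0 (median −0.21; all tested genes 0.0038), and 0 members were called where 0.169% of all tested genes were. The smallest p there was that of Cdt1, at 0.25 on the log2 scale, with an SE of 0.07 and an adjusted p of 0.240. In the Phlpp1/2 KO against the Phlpp1 KO the mitosis median was 0.26 (0 members called, background 0.0121%), and against the Phlpp2 KO it was 0.05 (0 called, background 0.0605%). Against the Phlpp2 KO the smallest p was that of E2f1 at 0.28 (SE 0.08, adjusted p = 0.415). At an unadjusted p under 0.05, 4, 1 and 6 members were higher and 0 lower in these 3 comparisons, against 5.09%, 3.1% and 3.56% of all tested genes higher and 5.47%, 4.88% and 5.18% lower.

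The interaction term sets the Phlpp1/2 KO against the sum, on the log2 scale, of both single knockouts. The interaction term was below 0 for 22 of 24 mitosis genes (median −0.16; all tested genes 0.01) and for 6 of 15 replication genes. It was largest for Cenpf at −1.39 (SE 0.36, adjusted p = 0.136) and Cenpe at −1.34 (SE 0.34, adjusted p = 0.132). edgeR called 0 members, where it called 0.0484% of all tested genes, and limma-voom called 0 (background 0.0484%). At an unadjusted p under 0.05, 9 of 54 members were lower and 0 higher (background 11% and 3.36%). DESeq2 called 4, all lower (Ccne2, Pola1, Cenpe and Cenpf), against 3.94% of all tested genes. All tested genes in the lowest quintile of GC content had a median interaction of −0.32, and its part in these values was not tested.

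For the loss of Phlpp2 over both backgrounds, 6 libraries (Phlpp2 KO and Phlpp1/2 KO) against 6 (Phlpp1 KO and WT), 0 members were called by edgeR (background 0.0907%). At an unadjusted p under 0.05, 24 were higher and 1 lower (background 3.62% and 3.22%). The mitosis median was 0.35, with all 24 above 0, led by Cenpf at 0.60 (SE 0.18, adjusted p = 0.538), and the replication median 0.05. For the loss of Phlpp1, 6 against 6, the medians were 0.19 for mitosis and 0.08 for replication, with all 24 and all 15 genes above 0. At an unadjusted p under 0.05 by edgeR, 6 members were higher and 0 lower, against 1098 and 1283 of 16540 tested genes.

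Other genes of the same pathways were listed by function. Of 93 further mitosis genes, 89, 91 and 92 lay above 0 in the Phlpp1 KO, Phlpp2 KO and Phlpp1/2 KO, with medians of 0.25, 0.38 and 0.43. Called higher were 1, 2 and 0 of them, none lower, against 0.218%, 0.0786% and 0.109% of all tested genes. Ska2, a subunit of the complex that holds kinetochores on microtubules, had 44.8, 37.9 and 40.7 CPM in the Phlpp1 KO, 40.7, 39.4 and 44.9 CPM in the Phlpp2 KO and 36.995, 35.1 and 42.4 CPM in the Phlpp1/2 KO, against 28.8, 29.4 and 27.5 CPM in WT. No knockout library of Ska2 overlapped with WT, and it rose by 0.53 (SE 0.09, adjusted p = 0.0193) in the Phlpp1 KO and 0.54 (SE 0.09, adjusted p = 0.0308) in the Phlpp2 KO on the log2 scale. Its log2 fold change in the Phlpp1/2 KO was 0.42 (SE 0.09, adjusted p = 0.0968). Kif15, a spindle motor, had 31.9, 25.1 and 29.7 CPM in the Phlpp1 KO, 28.5, 33.2 and 40.3 CPM in the Phlpp2 KO and 27.6, 27.4 and 33.3 CPM in the Phlpp1/2 KO, against 21.2, 20.5 and 17.7 CPM in WT, with no overlap, and rose in the Phlpp2 KO by 0.78 (SE 0.13, adjusted p = 0.0496). Ska2 was not called under the GC offset (0.29 and 0.28, adjusted p = 0.109 and 0.280), nor was Kif15 (0.61, 0.0877). Without both libraries with low Xist, Ska2 had an adjusted p of 0.133 in the Phlpp1 KO and Kif15 one of 0.0902 in the Phlpp2 KO. The Kif15 call held in 6 of 23 alternatives, with adjusted p values up to 0.329, and was lost by limma-voom (0.0934). The Ska2 call held in 15 of them in the Phlpp1 KO and 13 in the Phlpp2 KO.

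Of 61 further replication genes, 52, 52 and 57 lay above 0, with medians of 0.09, 0.11 and 0.18, and none was called. Dbf4, the activating subunit of the kinase that fires origins, had 40.3, 32.3 and 37.7 CPM in the Phlpp1 KO, 37.5, 36.03 and 44.4 CPM in the Phlpp2 KO and 34.7, 33.2 and 41.2 CPM in the Phlpp1/2 KO, against 29.3, 27.3 and 23.6 CPM in WT. Its adjusted p values were 0.0864, 0.126 and 0.206. Tipin, a protein that steadies replication forks, had 73.2, 72.3 and 69.6 CPM in the Phlpp1 KO, 72.6, 73.9 and 73.1 CPM in the Phlpp2 KO and 61.6, 60.95 and 73.1 CPM in the Phlpp1/2 KO, against 60.1, 59.5 and 52.1 CPM in WT. Its adjusted p values were 0.0750, 0.132 and 0.376. In both genes the 3 libraries of each knockout lay above WT. The log2 fold changes in the Phlpp1 KO, Phlpp2 KO and Phlpp1/2 KO were 0.46, 0.56 and 0.45 for Dbf4, and 0.16, 0.23 and 0.32 with the GC offset. For Tipin they were 0.33, 0.36 and 0.19, and 0.10, 0.10 and 0.10 with the GC offset.

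The remaining pathway lists had no called gene in any knockout against WT. The 15 RB, MuvB and other E2F genes had medians of 0.15 in the Phlpp1 KO, 0.07 in the Phlpp2 KO and 0.10 in the Phlpp1/2 KO. Of these, Lin54, the DNA-binding subunit of MuvB, had log2 fold changes of 0.39, 0.38 and 0.30 (adjusted p values 0.0673, 0.153 and 0.234) and Lin9, another subunit, 0.26, 0.33 and 0.17. With the GC offset these were 0.20, 0.16 and 0.23 for Lin54 and 0.10, 0.14 and 0.11 for Lin9. The 13 tested of 16 other G1 cyclins, CDKs and INK4 inhibitors had medians of 0.13 in the Phlpp1 KO, 0.05 in the Phlpp2 KO and 0.16 in the Phlpp1/2 KO. Skp2, which marks p27 for breakdown, had 0.24, 0.18 and 0.23, and Ccnh, the cyclin of the CDK-activating kinase, 0.21, 0.27 and 0.13. With the GC offset Ccnh stood at −0.11, −0.07 and 0.0036, so that its sign turned in both single knockouts. The 23 p53 targets had medians of 0.02 in the Phlpp1 KO, −0.04 in the Phlpp2 KO and 0.01 in the Phlpp1/2 KO, with the apoptosis genes Perp at −0.25, −0.32 and −0.45 and Fas at −0.18, 0.46 and −0.08. The 15 subunits of the anaphase-promoting complex had medians of 0.03 in the Phlpp1 KO, 0.02 in the Phlpp2 KO and 0.03 in the Phlpp1/2 KO, with Anapc5 at 0.06, 0.02 and 0.27 and Anapc7 at −0.09, −0.17 and −0.06.

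Promoter windows were searched for the motifs of both transcription programmes. Windows of 300 bases were found in the RefSeq table for 42 of 54 members and searched on both strands, overlapping matches included, for a CHR, an E2F core and a CCAAT box. The CHR was searched as TTTGAA or, as a second form, TTCGAA. The E2F core was searched as TTCCCGC and, in other forms, as TTCGCGC. It was also searched as TTGCCGC and, in its last form, as TTGGCGC. The CCAAT box was searched by the letters of its name. A CHR was present in 14 of 19 mitosis windows (73.7%), 2 of 13 replication windows (15.4%) and 18.2% of the 19663 genes with a window. An E2F core was present in 3 of 19 mitosis windows (15.8%), 10 of 13 replication windows (76.9%) and 11.6% of all. A CCAAT box was present in 84.2% of mitosis windows, 69.2% of replication windows and 38.4% of all. In the further genes, 67.5% of 80 mitosis windows held a CHR and 56.5% of 46 replication windows an E2F core. A match is a description of letters and not of binding. Other forms of the E2F site and of the CHR were not searched, so a window without a match may still hold one.

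Windows of mitosis genes are shown for Cenpe, Cenpf and Nusap1, which the rule on the smallest p picked among genes in the table, beside Ccnb2, a textbook CHR promoter. Capitals mark a CHR or a CCAAT box. Cenpf (chr1:189688037-189688336, minus strand) holds 2 CCAAT boxes and 1 CHR at the start site. Ccnb2 (chr9:70421505-70421804, minus strand), chosen after its matches were seen, holds 3 CCAAT boxes and 2 CHRs. Cenpe (chr3:135212313-135212612, plus strand) holds 1 CCAAT box and no CHR in the forms searched, and the window of Nusap1 (chr2:119618048-119618347, plus strand) neither.
Cenpf: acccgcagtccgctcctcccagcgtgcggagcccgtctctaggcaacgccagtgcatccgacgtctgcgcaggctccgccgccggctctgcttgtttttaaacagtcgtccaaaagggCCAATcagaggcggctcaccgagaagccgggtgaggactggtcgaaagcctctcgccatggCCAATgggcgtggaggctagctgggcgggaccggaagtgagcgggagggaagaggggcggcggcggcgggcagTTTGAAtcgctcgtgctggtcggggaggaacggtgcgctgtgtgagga
Ccnb2: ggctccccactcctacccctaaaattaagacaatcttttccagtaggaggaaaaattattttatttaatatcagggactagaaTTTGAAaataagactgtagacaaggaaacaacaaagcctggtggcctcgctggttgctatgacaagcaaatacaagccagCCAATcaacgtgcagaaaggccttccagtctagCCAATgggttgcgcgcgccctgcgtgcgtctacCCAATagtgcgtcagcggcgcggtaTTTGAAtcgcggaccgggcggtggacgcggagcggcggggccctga
Cenpe: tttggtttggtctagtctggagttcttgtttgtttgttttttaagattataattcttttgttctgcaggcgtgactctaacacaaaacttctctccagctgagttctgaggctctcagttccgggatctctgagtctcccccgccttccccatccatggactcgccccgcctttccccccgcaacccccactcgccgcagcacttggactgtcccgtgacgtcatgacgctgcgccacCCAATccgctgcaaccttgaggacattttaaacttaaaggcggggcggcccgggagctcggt
Nusap1: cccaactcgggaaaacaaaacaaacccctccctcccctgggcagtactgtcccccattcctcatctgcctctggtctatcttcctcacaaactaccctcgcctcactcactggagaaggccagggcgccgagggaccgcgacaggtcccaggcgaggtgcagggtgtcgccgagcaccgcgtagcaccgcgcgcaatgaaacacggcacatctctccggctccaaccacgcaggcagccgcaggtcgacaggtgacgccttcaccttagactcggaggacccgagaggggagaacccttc

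Changes were also grouped by the motif in the window. Of the mitosis genes with a window, the 14 with a CHR had median log2 fold changes of 0.26, 0.48 and 0.57 in the Phlpp1 KO, Phlpp2 KO and Phlpp1/2 KO. The 5 mitosis genes without a CHR match had 0.35, 0.55 and 0.58. Over all members, the 17 with a CHR had medians of 0.24, 0.45 and 0.49, and the 12 with an E2F core and no CHR 0.07, 0.03 and 0.10. No test was run on these medians.

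**Figure D4:**
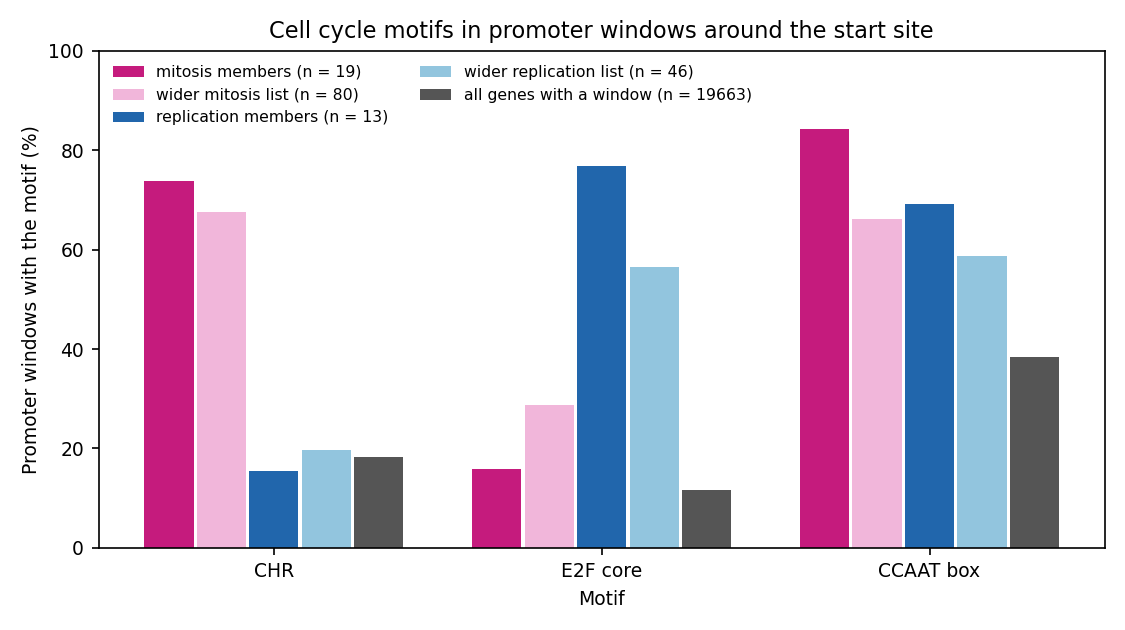
Share of promoter windows (percent) that hold a CHR, an E2F core or a CCAAT box, for the mitosis and replication members, the further genes of each kind and all genes with a window. The CHR bar is highest for the mitosis members (73.7%) and the E2F bar for the replication members (76.9%).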

How the data were processed

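The deposited raw counts per gene, not normalized by the authors, came from bcl2fastq 2.17, STAR 2.5.2b, mm10 and featureCounts (Subread 1.5.2), per the submitters' processing notes. Annotation release, strand setting and handling of multiply mapped reads were not stated there. Genes without a symbol (174, with 0.00419% of counts) were left out.

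edgeR 4.0.16 (R 4.3.3) tested 16540 genes, among them all 54 members, after filterByExpr removed 32601. It used TMM scaling and 1 robust quasi-likelihood fit to 12 libraries with genotype as the only term, and adjusted p over all tested genes. Each count was worth 0.0296 to 0.0451 CPM on TMM-scaled library sizes. SE is the log2 fold change over the root of its F statistic. DESeq2 1.42.0 and limma-voom (limma 3.58.1) were alternatives. The procedure was tested on simulated data. Positions and GC content came from GENCODE vM21.

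The members and lists were chosen with earlier results of these data known. By rule, values per library were given for genes called in any comparison, the 6 with the smallest p in each knockout against WT and 11 standard genes, and from each further list for genes called or otherwise the 2 with the smallest p and at least 1 CPM. Ccne2, Pola1, Cdt1, Cdk1 and Ccnb1, and the promoters of Mybl2, Ccnb2 and Mcm5, were added after values or matches were seen. By BLAST+ 2.17.0, 16 members share at least 10% of their transcript with another gene (95% identity, 150 bases), and Gins2, Kif20a, Ccne2, Rfc4, Ccna2 and Cdk4 overlap expressed genes, so reads there may belong to either.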

Additional observations from a re-analysis of the deposited data

How the results depend on the processing

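The mitosis medians stayed above 0 in every alternative run for the 3 knockouts against WT. Leaving out 1 library at a time gave mitosis medians of 0.105 to 0.404 in the Phlpp1 KO, 0.295 to 0.651 in the Phlpp2 KO and 0.412 to 0.603 in the Phlpp1/2 KO. It gave replication medians of 0.00813 to 0.0851, −0.0120 to 0.0949 and 0.0623 to 0.152. The number of members called ranged from 0 to 1 in the Phlpp1 KO, 0 to 1 in the Phlpp2 KO, 0 to 1 in the Phlpp1/2 KO, 0 to 4 for the interaction, 0 to 1 for Phlpp1 loss, 0 to 2 for Phlpp2 loss and 0 to 1 for the Phlpp1/2 KO against the Phlpp2 KO. The count of 4 for the interaction (Ccne2, Pola1, Cenpe and Kif11, with 7.36% of all genes called) came without Phlpp1/2 KO 3. So did calls of Ccne2 in both single knockouts (background 4.39% and 1.39%). Ccne2 was also called in that setting in the Phlpp1/2 KO against the Phlpp2 KO. The share of all genes called there is not given, so this call is not read as particular to Ccne2. Without Phlpp2 KO 1, Mybl2 was called in the Phlpp1 KO and Phlpp1/2 KO (background 2.11% and 0.341%) and Rrm1 and Aurkb for Phlpp2 loss (background 0.112%). DESeq2 called 8, 7 and 5 members in the Phlpp1 KO, Phlpp2 KO and Phlpp1/2 KO and 4 for the interaction, and over all genes it called 989, 317 and 168 in these knockouts, against 78, 23 and 37 by edgeR. A fit to the groups compared alone called 7 members in the Phlpp1 KO, where 1162 of 15741 genes were called, and 1 in the Phlpp1/2 KO (background 0.358%). Without the filter on low counts 1 member (Mybl2) was called in each of these knockouts (background 1.4% and 0.311%). The GC offset and the GC and length offset, both added after seeing the data, each called 1 member (Mybl2) in the Phlpp1/2 KO (background 0.278% under both). Without both libraries with low Xist, 0 members were called for Phlpp1 loss. The cause of these differences was not tested.

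Deviations from the group means correlated at −0.0815 to 0.195 over 18 pairs of same-numbered samples from different genotypes. Over 36 pairs with other numbers they correlated at −0.178 to 0.125. The 2 ranges overlap and cannot settle whether the replicate numbers pair the samples. With the replicate number as a block, 1 member (Cenpe) was called in the Phlpp1 KO (background 1.46%), 2 (Cenpe and Cenpf) in the Phlpp2 KO (background 0.532%), 1 (Cenpe, lower) for the interaction (background 2.26%) and 0 for Phlpp1 loss (background 0.302%). Without the block the backgrounds of these comparisons were 0.472%, 0.139%, 0.0484% and 0.544%.

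With 3 libraries per group, the SE of single mitosis genes in the comparisons with WT was 0.15 to 0.28 on the log2 scale, against 0.06 to 0.21 for replication genes, so a difference of a given size was harder to call among the mitosis genes.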

Other observations

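Ccne2 and Pola1 are an S phase cyclin and a replicative polymerase with low GC content. In the Phlpp1/2 KO they followed another order of libraries than the mitosis genes outside the lowest quintile of GC content. Within the Phlpp1/2 KO, libraries 1 and 2 had log2 ratios to the WT mean of 0.09 and −0.09 for Ccne2 and 0.14 and −0.06 for Pola1, and library 3 had 0.74 and 0.74. All tested genes in the lowest quintile of GC content had medians of −0.01, 0.004 and 0.24 in Phlpp1/2 KO 1, 2 and 3. The 17 mitosis genes outside that quintile had medians of 0.67, 0.47 and 0.37 in the same libraries. The 7 mitosis genes inside it had 0.61, 0.38 and 1.01, the same order of libraries as Ccne2 and Pola1. In Phlpp2 KO 1 the 7 mitosis genes of low GC content had a median of 0.44, the other 17 one of −0.11, and all tested genes of low GC content one of 0.25.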
